A study of Homo sapiens with 4 samples.

Results

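The genes examined were 10 members of the BCL2 family, *BCL2*, *BCL2L1*, *MCL1*, *BCL2A1*, *BAK1*, *BCL2L11*, *BAD*, *BID*, *BMF* and *BIK*, and they were found through the transcript that each array probe is assigned to. All 10 genes had at least 1 probe, with 18 probes in all among the 41000 different probes of the array, and among 17721 gene symbols that could be assigned. The samples were Nalm-6 cells, an established human pre-B cell line grown without added oxidative stress, and total RNA of each genotype was hybridized to 1 single-color array. The genotypes were wild-type (WT), Arp5 KO, Arp8 KO and a line that the labels call Arp8 overexpression (its array is the OE-labelled array below). All 4 arrays lay on 1 slide and were read in 1 scan. Arp5 and Arp8 are actin-related proteins of the INO80 chromatin remodeling complex. Both loci were disrupted by homologous recombination. Arp5 KO cells are a single established line in which both alleles were targeted. For the Arp8 KO cells the series describes a tetracycline-regulated Arp8 transgene (Tet-Off), and whether tetracycline was present, and for how long, is not given in the sources used here. Since each genotype has 1 array, no replicate error or p-value can be given, and the number of arrays limits the precision.

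Proteins of the BCL2 family decide whether the outer membrane of the mitochondrion is opened, the step that releases cytochrome c and starts the intrinsic pathway of apoptosis. Guardians such as BCL2, BCL-XL (from *BCL2L1*), MCL1 and BCL2A1 hold the effectors BAX and BAK in check, and BH3-only proteins such as BIM (from *BCL2L11*), BAD, BID, BMF and BIK either bind the guardians or engage the effectors. Precursor B cells depend on this balance for survival, and *BCL2* is known for its activation by translocation in B-cell lymphoma.

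The targeted genes were examined first. *ACTR5*, which encodes Arp5, had a processed signal of 1909 units in WT, 65.3 in Arp5 KO, 1849 in Arp8 KO and 2088 in OE-labelled cells. Its log2 ratio of Arp5 KO to WT cells was -4.85, so this array bore out its label. *ACTR8*, which encodes Arp8, gave 1092, 993, 785 and 679 units in the same order with probe A_23_P80694, and 2149, 2233, 1654 and 1857 units with probe A_24_P131697. The OE-labelled array was therefore below the WT array with both probes, at log2 ratios of -0.71 and -0.23, and it goes against its label at the level of these probes. Arp8 KO cells were lower than WT by 0.49 and 0.40 on the log2 scale, or 1.41-fold and 1.32-fold, against 28.8-fold for *ACTR5* in Arp5 KO cells. The fold of *ACTR5* was smaller with a normexp background correction, as given with the other processing settings below. Arp8 KO cells were above the OE-labelled array with A_23_P80694 and below it with A_24_P131697, at log2 ratios of 0.21 and -0.16. These probes therefore do not bear out the Arp8 KO label by a loss of signal either. Where the probes lie relative to the disrupted or introduced sequence was not examined, so directions below are those of the array as labelled.

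The cells were checked against markers. Of 13 pre-B cell markers with a probe all 13 were well above background on each of the 4 arrays. The signals of all their probes summed to 598923, 593378, 571936 and 586855 units in WT, Arp5 KO, Arp8 KO and the OE-labelled array, and the brightest gene was *IGLL1*, which encodes a surrogate light chain. Single markers were not level, as the log2 ratios to WT of these probes ran from -1.78 (*CD22* in Arp8 KO) to 0.55. Of 5 mature B and plasma cell markers with a probe, 4, 3, 3 and 4 were detected in the same order. The summed signal of the list was 170004, 155446, 150348 and 177998 units. *MS4A1* had 12.6 units in WT and 48.9 on the OE-labelled array, a log2 ratio of 1.93, but was not well above background in Arp5 KO or Arp8 KO. *PRDM1* had 44.2 units in WT and 94.1 in Arp5 KO, a log2 ratio of 1.11. The probes of *XBP1* gave -0.11 and -0.22 in Arp5 KO, and 0.03 and 0.05 on the OE-labelled array. Those of *SDC1* gave -0.001 and -0.32 in Arp5 KO, and 0.21 and -0.005 on the OE-labelled array. Among 5 T cell markers *CD2* and *CD3E*, and among 4 erythroid markers *ALAS2*, were well above background on every array, with no probe over 47.7 units. Of 5 myeloid markers 4 were above background on every array, and the summed signal of the list was 233 units in WT and 217 in Arp5 KO cells, against 362 in Arp8 KO and 337 in OE-labelled cells. Of the 4, *LYZ*, *ITGAM* and *CSF1R* were higher than WT on both, with log2 ratios of 1.35, 0.94 and 0.53 in Arp8 KO cells and of 1.31, 0.50 and 1.17 on the OE-labelled array, and *CD14* had 0.02 and -0.14. Single markers are named after their values were seen. The part of such cells in the results below was not tested. In RNA from whole cultures, fewer cells of a type and less RNA per cell cannot be told apart.

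A log2 ratio between 2 arrays was read where the scanner software marked the brighter of them as well above background. Spots marked as outliers were left out, and each log2 signal had the 75th percentile of its array subtracted. The error of a ratio is technical. It is the SD over repeated spots of the same probe, and its median over repeated probes was 0.030 to 0.035 for signals over 500 units and 0.056 to 0.066 for signals from 50 to 500 units. It holds no variation between cultures. Of the 18 member probes 17 were well above background on all 4 arrays. The exception was A_23_P152002 of *BCL2A1*, with 1.7, 1.7, 2.1 and 1.9 units.

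No member probe was beyond 2-fold in any of the 4 comparisons. In Arp5 KO over WT cells 0 of 17 were higher and 0 lower, against 1.17% higher and 1.14% lower of the 29911 probes that could be read. For Arp8 KO over WT cells the 17 probes again gave 0 in each direction, beside a background of 1.48% higher and 2.07% lower. The OE-labelled array over WT had 0 of 17 each way, where 1.48% of all probes were higher and 2.76% lower. Between Arp8 KO cells and the OE-labelled array, a comparison that does not use the WT array, the background was 0.938% higher and 0.925% lower and the members again gave 0. At these shares fewer than 1 of 17 probes would be past the threshold, so the 0 is no result about the family. It also lies close to the threshold, because *BIK* at -0.97 and *BMF* at 0.98 each passed 2-fold under other scalings of the same arrays.

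At a lower threshold of 1.5-fold, 2 of 17 member probes were lower and 0 higher in Arp5 KO cells, against 3.88% and 5.01% of all probes. In Arp8 KO cells 3 were lower and 0 higher, with a background of 6.92% lower and 5.36% higher. On the OE-labelled array 1 probe was lower and 1 higher, beside 7.94% and 5.33%. For Arp8 KO over the OE-labelled array 1 was lower and 0 higher, where 4.02% and 4.43% of all probes were. The probes behind these counts belong to *BCL2*, *BCL2L1*, *BMF* and *BIK*. The first 3 comparisons share the WT array, so their values are given side by side and are not independent of each other.

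**Figure D1:**
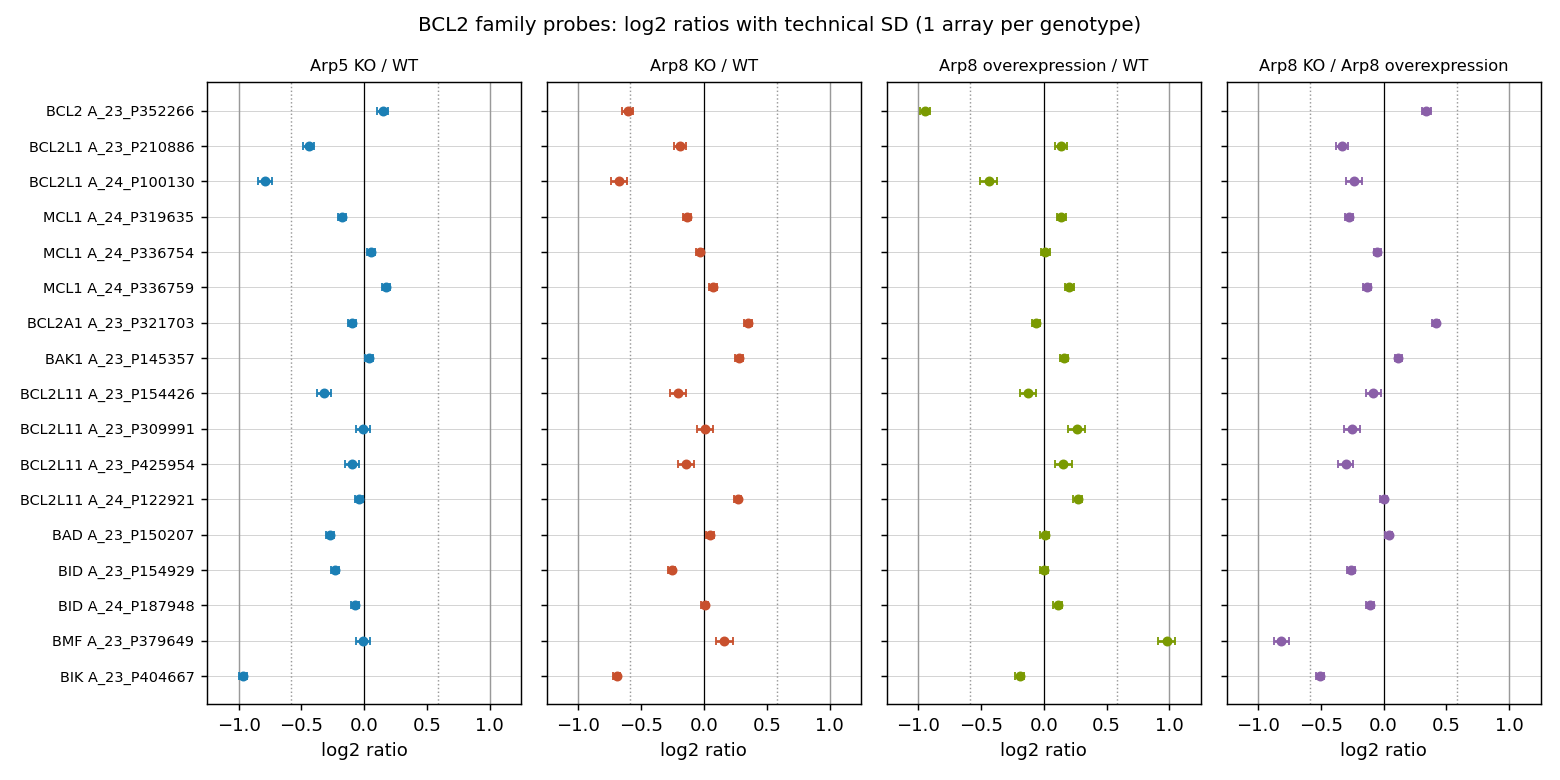
Log2 ratios of the 17 BCL2 family probes well above background on all 4 arrays (rows), in 4 comparisons (panels), where points are ratios and bars 1 technical SD from repeated spots. For probes with 1 spot per array the bar is the median SD of repeated probes in the same signal class. Solid grey lines mark 2-fold and dotted lines 1.5-fold, and BIK at -0.97 and BMF at 0.98 sit just inside the solid lines.

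Among the guardians, *BCL2* changed most across the arrays. Its probe A_23_P352266 is printed 10 times on each array. The mean signal was 3882 units in WT, 4235 in Arp5 KO, 2580 in Arp8 KO and 2048 in OE-labelled cells. WT and Arp5 KO were the high arrays and those of the Arp8 lines the low ones. The lowest spot in WT cells was 3637 units and the lowest of the 9 spots used in Arp5 KO cells was 4101, whereas the highest spots were 2741 units in Arp8 KO and 2146 in OE-labelled cells, so the spots of the high and the low arrays did not overlap. The log2 ratio to WT was 0.15 in Arp5 KO cells, -0.61 in Arp8 KO and -0.95 in OE-labelled cells, with technical SDs of 0.04. Across 5 other scalings the last ratio ranged from -0.99 to -0.90 and the ratio in Arp8 KO cells from -0.63 to -0.56, so the latter lies on either side of the 1.5-fold line at 0.585. Between the Arp8 arrays the ratio was 0.34. Both Arp8 arrays were below both others by over 0.5 for this probe, a gap chosen after its values were seen, and so were 2.11% of the 27921 probes well above background on all 4 arrays. Of these, 400 had a larger gap than the 0.61 of *BCL2*.

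**Figure D2:**
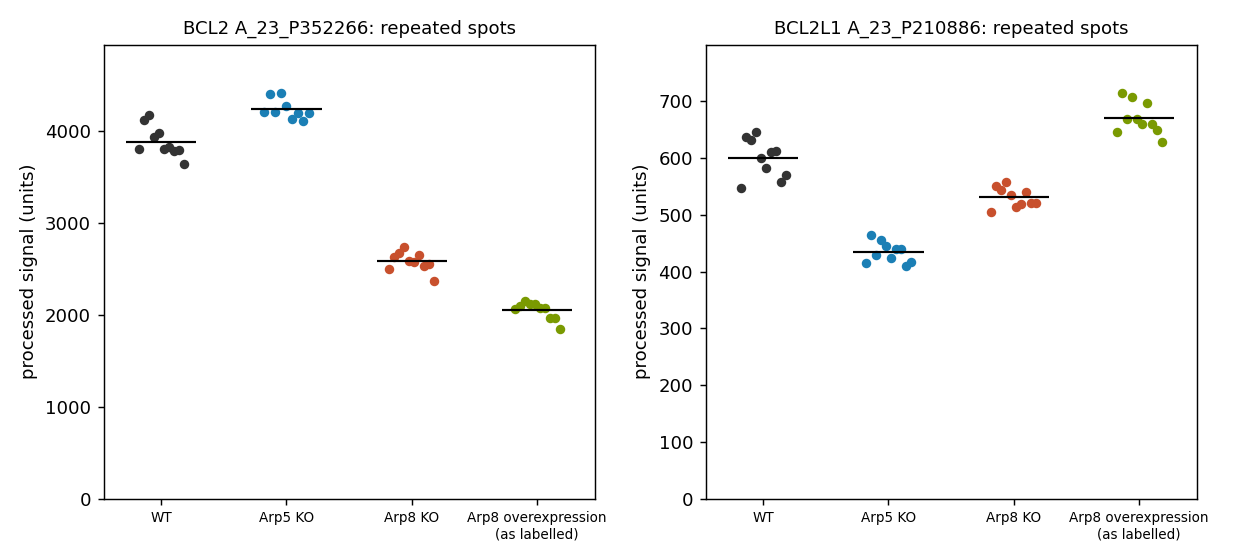
Processed signal in units of every spot used of the probes of BCL2 and BCL2L1 that are printed 10 times on each array (points), by array, with the mean as a black line. BCL2 spots lie between 3637 and 4408 units on the WT and Arp5 KO arrays and between 1850 and 2741 units on the arrays of the Arp8 lines.

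*BCL2L1*, which encodes the guardian BCL-XL, has 2 probes that differ. They are assigned to different transcripts of the gene, and which form each probe detects could not be checked, so neither value can be taken as that of BCL-XL alone. With A_23_P210886, also printed 10 times, the mean signal was 599 units in WT, 434 in Arp5 KO, 531 in Arp8 KO and 670 in OE-labelled cells. Arp5 KO cells stood apart here, as their highest spot of 464 units was below the lowest of 505 in Arp8 KO and 547 in WT cells, while the spots in WT overlapped those of Arp8 KO cells and of the OE-labelled array. The log2 ratios to WT were -0.44, -0.19 and 0.14. The second probe, A_24_P100130, is dim, with 99.5, 56.7, 63.1 and 74.5 units in the same order, and was highest in WT cells. Its log2 ratios were -0.79, -0.67 and -0.44, so the 2 probes differ in sign on the OE-labelled array. With a normexp background correction the first 2 of these came to -0.52 and -0.39, inside 1.5-fold.

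The other guardians varied less. *MCL1*, whose protein is short-lived, had 36195, 37098, 35780 and 37135 units with A_24_P336754, a range of 0.09 on the log2 scale over the 4 arrays, and 2.1% of all probes had a smaller range. Its other probes spanned 0.32 and 0.20, and the sign of the A_24_P336754 ratios to WT changed with the scaling. *BCL2A1*, a guardian induced by NF-kappaB, gave 5972 units in WT, 5487 in Arp5 KO, 7716 in Arp8 KO and 5814 in OE-labelled cells with A_23_P321703. Arp8 KO cells were the high array, at a log2 ratio of 0.35 to WT and 0.41 to the OE-labelled array. The other *BCL2A1* probe, A_23_P152002, is assigned to the same transcript but was not well above background on any array, at 1.7 units in WT. The probes therefore disagree on whether this transcript is detected.

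*BAK1*, the gene of the effector BAK, had 2562 units in WT, 2591 in Arp5 KO, 3148 in Arp8 KO and 2910 in OE-labelled cells. Its log2 ratios to WT were 0.04, 0.28 and 0.16, the first of which changed sign with the scaling.

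Of the BH3-only genes, *BMF* and *BIK* varied most. *BMF*, whose protein binds the guardians after loss of anchorage, had 255 units in WT, 250 in Arp5 KO and 289 in Arp8 KO, against 511 in OE-labelled cells. The last array stood alone, 1.97-fold above WT with a log2 ratio of 0.98 and a technical SD of 0.07 from other probes of its signal class. The ratio ranged from 0.84 to 1.03 over the 5 other scalings, and it passed 2-fold with median scaling and with quantile normalization. Arp8 KO over the OE-labelled array gave -0.81. Its gap over the next array was 0.81, and 1.03% of all probes stood over 0.5 above the other 3 arrays on the OE-labelled array. Of these, 110 had a larger gap than *BMF*.

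*BIK*, a BH3-only protein of the endoplasmic reticulum, had 1451 units in WT, 731 in Arp5 KO, 906 in Arp8 KO and 1291 in OE-labelled cells. Both KO arrays were low and both others high. The log2 ratios to WT were -0.97, -0.70 and -0.19, and Arp5 KO cells were 1.95-fold below WT. Technical SDs from other probes of its signal class were 0.030 to 0.035. The first ranged from -1.01 to -0.89 over the other scalings and passed 2-fold with median scaling and in the authors' table. Arp8 KO over the OE-labelled array gave -0.51, and 0.401% of all probes were lower by over 0.5 in both KO cells than on both other arrays. Of the 112 probes in that class, 106 had a larger gap than *BIK*. The gap for *BIK* was 0.51 and fell to 0.48 to 0.49 under 3 of the 5 other scalings, where *BIK* is no longer in that class.

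**Figure D3:**
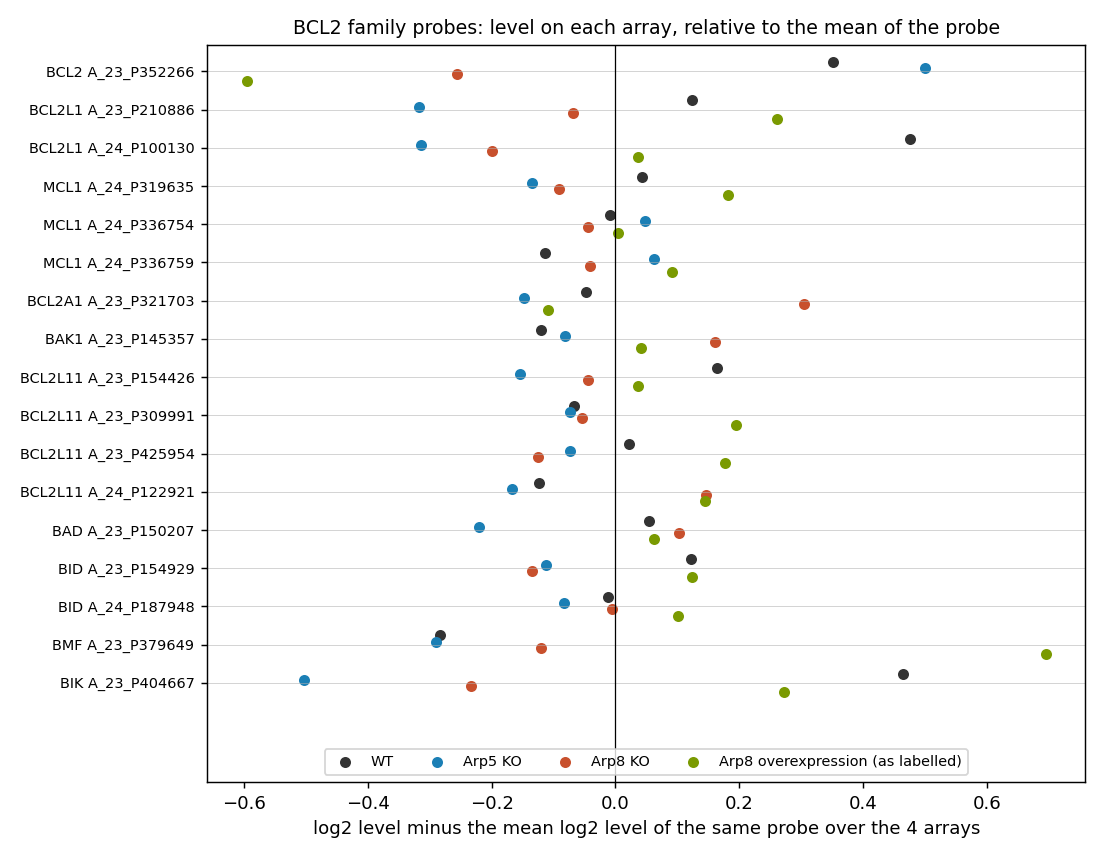
Log2 level of each BCL2 family probe on the 4 arrays (colors), relative to the mean level of the same probe over the arrays, so that rows can be compared by spread only. BCL2 is low on the arrays of both Arp8 lines, BIK is low on both KO arrays, and BMF is high on the OE-labelled array.

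The remaining BH3-only genes stayed within 1.5-fold of WT on every array under the main scaling. *BCL2L11* (BIM) has 4 probes, which ranged over 0.27 to 0.32 across the arrays. They did not move alike, since A_23_P154426 had a log2 ratio of -0.32 in Arp5 KO cells and A_24_P122921 of 0.27 in Arp8 KO cells, where the first had -0.21. *BAD*, whose protein is held inactive by phosphorylation, had 9144, 7444, 9566 and 9343 units, with Arp5 KO cells lowest at a ratio of -0.27. *BID*, which is cleaved by caspase-8, had ratios of -0.23 and -0.26 in Arp5 KO and Arp8 KO cells with A_23_P154929 and of -0.07 and 0.00 with A_24_P187948. All 9 BH3-only probes had ratios below 0 in Arp5 KO cells under the main scaling, of which *BMF* and A_23_P309991 lie within 1 technical SD of 0 and *BMF* changed sign with the scaling, while the median over all probes was 0.04 and 13047 of the 29911 were below 0. Not every BH3-only gene outside the members went this way, since *BBC3* with 3 probes and *HRK* with 2 had ratios from 0.05 to 0.49 there, while *PMAIP1* was at -0.02, within 1 technical SD of 0, and *BNIP3* and *BNIP3L*, given below, were lower than WT (*HRK* and *PMAIP1* are named after their values were seen).

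Promoter sequence was matched for 8 of the 10 genes in RefSeq (GRCh38.p14). The 250 bases before the start are shown for *BCL2* and *BMF*, which lay farthest below and above WT on the OE-labelled array, with the outermost of the *BMF* starts. The *BCL2* window is chr18:63319770-63320019 and the *BMF* window chr15:40108880-40109129, both on the minus strand and written 5′ to 3′ along the gene. Capitals mark matches on either strand to the GC box GGGCGG and to the CCAAT box CCAAT, which reads ATTGG on the other strand.
BCL2: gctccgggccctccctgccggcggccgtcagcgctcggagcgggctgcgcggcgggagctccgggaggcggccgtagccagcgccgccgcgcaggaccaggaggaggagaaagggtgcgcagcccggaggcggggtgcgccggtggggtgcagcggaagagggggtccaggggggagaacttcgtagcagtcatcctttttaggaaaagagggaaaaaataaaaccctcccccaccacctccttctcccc
BMF: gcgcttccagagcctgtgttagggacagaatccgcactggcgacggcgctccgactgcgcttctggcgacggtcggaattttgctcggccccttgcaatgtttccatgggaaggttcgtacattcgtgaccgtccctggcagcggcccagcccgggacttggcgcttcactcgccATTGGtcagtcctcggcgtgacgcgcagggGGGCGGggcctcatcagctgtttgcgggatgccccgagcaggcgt
The *BMF* window shown holds 1 GC box and 1 CCAAT box and the *BCL2* window neither. The window before the other *BMF* start holds neither as well, at a GC content of 48.8%, so the difference depends on the start that is taken. Among 35116 promoter windows of the same length 42.6% hold a GC box and 32% a CCAAT box. Neither window holds, on either strand, the TATA box TATAAA (in 10.7% of all windows), the E-box CACGTG (in 6.34%), the AP-1 site TGANTCA (in 6.57%) or the YY1 core CCATNTT (in 11.6%). The GC content was 70.0% for *BCL2* and 65.2% for *BMF*, against a median of 58.0%. A match or its absence is a description of these letters.

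Other genes of apoptosis were read from 6 lists with 48 genes and 79 probes. Beyond 2-fold, 1 of 73 probes was higher and 4 lower in Arp5 KO cells, against the 1.17% and 1.14% of all probes given above. In the Arp8 KO line 5 of 74 were higher and 0 lower, beside 1.48% and 2.07%. On the OE-labelled array 0 were higher and 1 of 73 lower, beside 1.48% and 2.76%. In Arp8 KO over the OE-labelled array 3 of 75 were higher and 0 lower, beside 0.938% and 0.925%. The medians over the readable probes were -0.03, 0.04, 0.01 and 0.05 on the log2 scale, against 0.04, 0.01, 0.01 and 0.01 over all probes.

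Of the probes of other BCL2 family members, 3 of 19 were lower and 0 higher beyond 2-fold in Arp5 KO cells, beside 1.14% and 1.17% of all probes. In Arp8 KO cells 2 of 20 were higher and 0 lower, beside 1.48% and 2.07%. On the OE-labelled array 1 of 19 was lower and 0 higher, beside 2.76% and 1.48%. For Arp8 KO over the OE-labelled array 2 of 20 were higher and 0 lower, beside 0.938% and 0.925%. The higher probes are all of *BBC3*, and the lower ones in Arp5 KO cells are of *BNIP3* and *BNIP3L*, so the counts repeat genes. *BBC3*, which encodes the BH3-only protein PUMA, a p53 target, had 5154 units in WT, 5943 in Arp5 KO, 16989 in Arp8 KO and 6217 in OE-labelled cells with A_23_P382775. Arp8 KO cells were high, with log2 ratios of 1.70 to WT and 1.46 to the OE-labelled array. A_24_P305312 gave 1.86 and 1.28, but A_23_P90189, the brightest, gave 0.27 and 0.06, so the probes disagree. *BAX*, the effector beside BAK, was 1.18 below WT on the log2 scale on the OE-labelled array with A_23_P346311, at 3494 units in WT and 1568 there, and 0.84 below WT in Arp8 KO cells at 1969 units, but the 3 probes differ. A_23_P208706, printed 10 times, was also lower on the OE-labelled array, at -0.53, but at -0.06 in Arp8 KO cells, and A_23_P346309 gave 0.06 and -0.09 on these arrays. Which transcripts of *BAX* and *BBC3* their probes detect could not be checked. *BNIP3* and *BNIP3L*, mitophagy receptors, were low on all 3 arrays relative to WT. *BNIP3* had 22890 units in WT, 10587 in Arp5 KO, 15130 in Arp8 KO and 13264 in OE-labelled cells, with log2 ratios of -1.09, -0.61 and -0.81, and the probes of *BNIP3L* gave -1.08 and -1.06 in Arp5 KO cells. As all of these ratios share the WT array, a value particular to that array cannot be told apart from a change in the other 3.

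Death receptors included further large ratios. *TNFRSF10B*, a TRAIL receptor, had 4537 units in WT, 4150 in Arp5 KO, 11582 in Arp8 KO and 5958 in OE-labelled cells with A_24_P218265, and the log2 ratio in Arp8 KO cells was 1.34 with this probe and 1.39 with A_23_P169030. On the OE-labelled array the ratios to WT were 0.37 and 0.96, so the probes disagree on how far that array lay from Arp8 KO. *TNFRSF10A*, the other TRAIL receptor, had 83.7 units in WT, 115 in Arp8 KO and 77.6 in OE-labelled cells, and was not well above background in Arp5 KO cells, which makes it at least 10.7-fold lower there, on 1 spot. *FASLG* gave 0.73 with both probes on the OE-labelled array. The higher of its signals there was 60.1 units.

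In the remaining lists *CYCS*, which encodes cytochrome c, had 216 units in WT against 456, 460 and 428 on the Arp5 KO, Arp8 KO and OE-labelled arrays with A_24_P29665, or 2.14-fold above WT in Arp5 KO cells, whereas A_24_P376556 gave log2 ratios of -0.01, 0.18 and 0.17 and A_32_P174083 of 0.40, 0.31 and 0.57. *CASP10* was just past 2-fold higher in Arp8 KO cells than on the OE-labelled array with A_24_P139993, a dim probe at 45.7 and 22.9 units with a technical SD of 0.22. With A_23_P209408, also dim, the same log2 ratio was 0.76, and that of Arp8 KO to WT cells was 0.94, both inside 2-fold. *BIRC6* and *NAIP*, *VDAC1* and *VDAC2*, and *HUWE1* and *BTRC* were the genes farthest from WT among the inhibitors of apoptosis, the outer membrane channels and the genes of MCL1 turnover (counting probes detected on every array), and none of their probes passed 2-fold. *VDAC1* had a log2 ratio of -0.67 in Arp5 KO cells with A_32_P163169. *HUWE1*, a ubiquitin ligase of MCL1, was below WT with all 3 probes on all 3 arrays, at -0.53 in Arp8 KO cells with A_24_P310667.

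**Figure D4:**
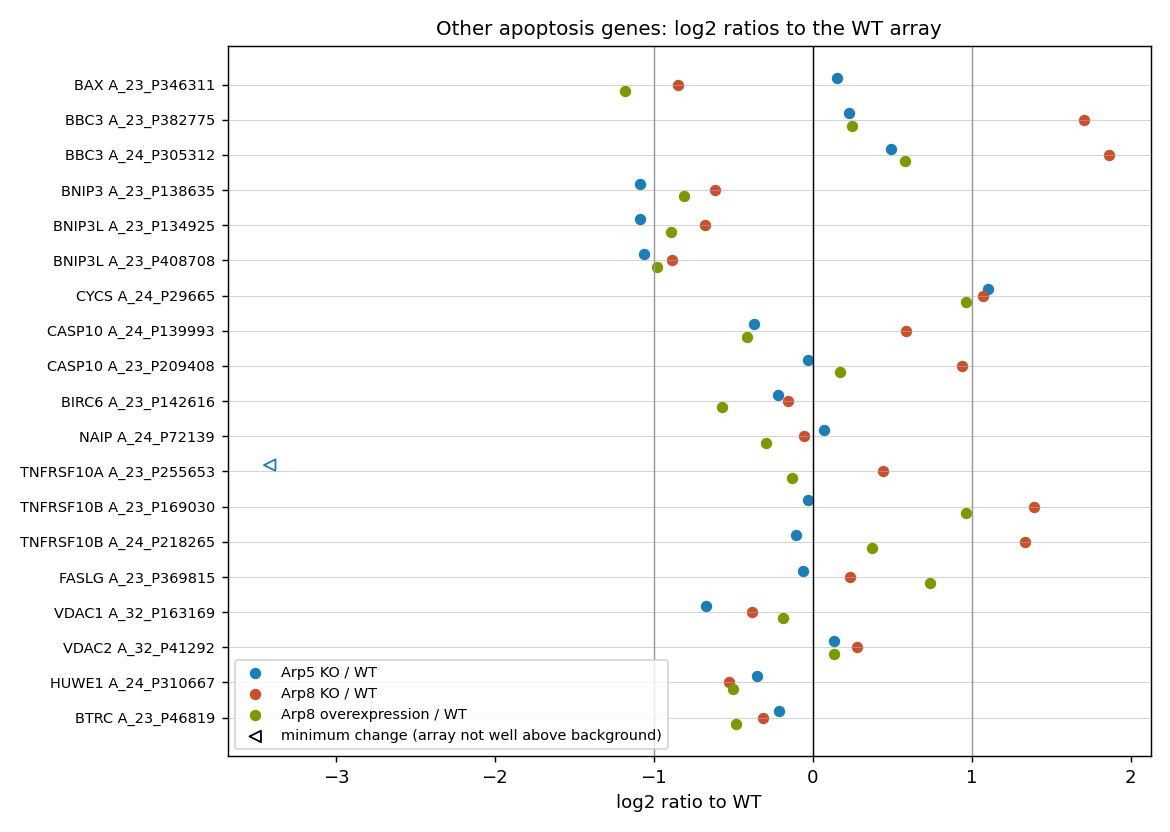
Log2 ratios to the WT array (horizontal axis) for the probes of other apoptosis genes that passed 2-fold or lay farthest from WT in their list, with 1 point per comparison and grey lines at 2-fold. The open triangle for TNFRSF10A is a minimum change, because the Arp5 KO array was not well above background, and the BBC3 and TNFRSF10B probes shown reach 1.34 to 1.86 in Arp8 KO cells. Other probes of the same genes, such as the brightest of BBC3 at 0.27, are not drawn.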

How the data were processed

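Total RNA of 4 genotypes of Nalm-6 cells was measured on single-color Agilent arrays, 1 array each. The authors deposited, per the file headers, the output of Agilent Feature Extraction 10.5.1.1, in which the processed signal of a spot is a linear intensity with the background already subtracted. A further deposited table holds intensity values by the authors that equalled the processed signal multiplied by 1 factor per array (0.847 in WT, 0.838 in Arp5 KO, 0.825 in Arp8 KO, 0.807 on the array labelled Arp8 overexpression, the OE-labelled array; column medians 127.4, 127.9, 122.5 and 119.1 units). It is linear and uncentred, and the origin of the factors is unknown.

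From each log2 signal the 75th percentile of the 43376 non-control spots was subtracted, which was 1980.5, 1950, 2004 and 2012 units in WT, Arp5 KO, Arp8 KO and the OE-labelled array. Spots of a probe were averaged, and outlier spots were left out. Where a probe was dimmer than any detected probe of its array, that detected minimum took its place, 7.76, 6.90, 9.44 and 8.87 units. Between 30394 and 31420 spots per array were well above background, and no spot was saturated. RefSeq names (GRCh38.p14) matched 26222 probes (64.0%). The design header names build hg18, so no position of a probe is given.

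Genes named are all members, other apoptosis genes beyond 2-fold, the 2 farthest from WT in each list, and *ACTR5* and *ACTR8*. The members and lists were chosen with earlier results of these data known. Alternatives were median scaling, the 75th percentile over probes detected on every array, quantile normalization, the authors' table, normexp (offset 50) run on median signals since mean signals were not among the columns used, other filters on dim probes, 1.5-fold, and outlier spots kept. The call rule was tested on simulated data that held changes larger than 2-fold and spot noise only. That test does not cover changes near the thresholds or variation between cultures. Software was R 4.3.3 with limma 3.58.1, and Python 3.11.15 with numpy 2.4.6, pandas 2.3.3 and matplotlib 3.10.9.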

Additional observations from a re-analysis of the deposited data

How the results depend on the processing

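No paired analysis was possible because there is only 1 array for a genotype. The count of member probes beyond 2-fold was 0 in each comparison under the main setting. In Arp5 KO over WT cells it was 1 with median scaling and 1 in the authors' table (*BIK*), and on the OE-labelled array over WT it was 1 with median scaling and 1 with quantile normalization (*BMF*). With 1.5-fold it was 2, 3, 2 and 1 in Arp5 KO, Arp8 KO and the OE-labelled array over WT and in Arp8 KO over the OE-labelled array. With normexp the counts beyond 1.5-fold were 1 for Arp5 KO and 1 for Arp8 KO over WT. The other apoptosis probes beyond 2-fold numbered 5, 5, 1 and 3. With 1.5-fold they numbered 9 of 73, 14 of 74, 11 of 73 and 8 of 75. Of these, 3, 10, 6 and 8 were higher, beside 5.01%, 5.36%, 5.33% and 4.43% of all probes. The lower ones were 6, 4, 5 and 0, beside 3.88%, 6.92%, 7.94% and 4.02%. Keeping outlier spots gave 6, 6, 2 and 3 beyond 2-fold. This is because *BIRC3*, whose WT spot is marked as an outlier, was then beyond 2-fold below WT in all 3 comparisons with it. The ratio of *ACTR5* in Arp5 KO cells was -3.99 with normexp. Of 68 member ratios, those that moved by over 1 technical SD numbered 34 with normexp, 33 with median scaling, 21 in the authors' table, 14 with quantile normalization and 0 with the other settings, and no called ratio changed sign. Over all probes, 351 were higher and 342 lower beyond 2-fold in Arp5 KO over WT, against 82 and 98 with normexp. The same counts were 436 and 609 against 120 and 215 for Arp8 KO, 439 and 819 against 135 and 218 for the OE-labelled array, and 274 and 270 against 64 and 86 for Arp8 KO over the OE-labelled array. The cause of these shifts was not tested. Probes under 50 units have a median technical SD of 0.215 to 0.244, which limits what dim probes can show. The 1.5-fold threshold was planned as an alternative to 2-fold. Its own repeats under the other settings, the counts of other apoptosis probes with outlier spots kept, and the gap classes were added after the data were seen.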

Other observations

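The probes whose 3 log2 ratios to WT lay nearest to those of *BCL2*, *BIK* and *BMF* were looked up among 19271 named probes well above background on all 4 arrays, which was decided after the values were seen. Nearest to *BCL2* were *USP32*, at a Euclidean distance of 0.08, and *MYBL1*, at 0.12. *SOCS1*, a feedback inhibitor of cytokine signaling, was nearest to *BIK* at 0.09, with ratios of -1.02, -0.63 and -0.20 in Arp5 KO, Arp8 KO and OE-labelled cells, followed by *PHLDB2* at 0.14. *CRB2* and *MXRA7* were nearest to *BMF*, at 0.12 and 0.14. These distances are over 3 values that share the WT array, and nothing about shared control follows from them.

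*BIRC3*, an inhibitor of apoptosis and NF-kappaB target, has no ratio to WT in the report because its WT spot was marked as an outlier. With that spot kept the log2 ratio was -1.27 in Arp8 KO. The Arp5 KO and OE-labelled arrays were not well above background for it, at 6.0 and 7.9 units, so their values of -2.555 and -2.237 are bounds and the ratios were at or below them. Without WT, Arp8 KO cells at 17.3 units were at least 1.95-fold above the OE-labelled array.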
